A study of Mus musculus with 20 samples.

Results

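Glycolysis was examined through 10 genes among the 31053 in each count matrix, chosen by name so that the pathway is covered from glucose uptake to lactate. The members are the glucose transporter Slc2a1, the upper enzymes Hk2, Pfkp, Aldoa and Tpi1, the lower enzymes Gapdh, Pgk1, Eno1 and Pkm, and Ldha. Glycolysis splits glucose into pyruvate, with ATP spent in the upper steps and regained in the lower steps, and lactate dehydrogenase turns pyruvate into lactate while restoring the NAD+ that Gapdh consumes. Lymphocytes at rest use little glucose, and activated or dividing lymphocytes take up more. Neutrophils carry few active mitochondria and draw most of their ATP from glycolysis.

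Single-cell RNA-sequencing (scRNA-seq) had been performed on unselected live cells from 13 mice, giving 20 libraries. The labels give C57BL/6N as the strain of every mouse, while the study's methods place the Eµ-TCL1 parents of the cross on C57BL/6J. The 5 Eµ-PRMT5 spleens came from mice with a human PRMT5 cDNA, the 4 Eµ-TCL1 spleens and 3 Eµ-TCL1 lymph nodes from mice with a human TCL1 cDNA, and the 4 Eµ-PRMT5/TCL1 spleens and 4 Eµ-PRMT5/TCL1 lymph nodes from mice with both. PRMT5 is an arginine methyltransferase and TCL1 an oncogene of lymphocytes, and both transgenes are driven in B cells by a VH promoter and the IgH-Eµ enhancer. Lymph nodes were sub-mandibular, tissues were taken when mice met early removal criteria, ages are not used here, and no wild-type group is among the libraries analysed. Eµ-PRMT5 spleen 3 came from a founder animal, and 7 mice gave both a spleen and a node. Libraries are named by group and replicate number, each is 1 mouse and tissue, and every p-value below measures the spread between these libraries.

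Libraries held between 9348090 and 72440900 unique molecular identifiers (UMIs, one per captured RNA molecule) in all barcodes. After cell calling and doublet removal 84231 cells remained, 688 to 7631 per library. Cells with at least 3 UMIs of Cd79a and Cd79b, no UMI of Cd3d, Cd3e or Cd3g and fewer than 20 of Jchain were taken as B cells, which gave 30890 cells, 195 to 5136 per library. T cells (29627, from 42 per library) carried at least 2 UMIs of the Cd3 genes, and myeloid cells (5829, from 12 per library) at least 10 UMIs summed over Lyz2, Cst3, Fcer1g and Tyrobp. The remaining 17885 cells were in no class, 123 to 3025 per library. They were 1955 of 4029 cells in Eµ-PRMT5 spleen 4 and 3025 of 7631 in Eµ-PRMT5/TCL1 lymph node 4. These libraries held 800 and 1587 B cells, against 1857 and 3282 under alternative gates on ratios of the class markers. All 9 B-cell markers were detected in B cells, at a summed 5797 to 34182 CPM per library against 50.4 to 449.6 CPM in T cells. Cd79a and Cd79b, which set the gates, are among the 9, so part of this difference follows from the gates. In myeloid cells these markers summed to 573.8 to 20264 CPM. In Eµ-TCL1 lymph node 3 the sum was 1300 CPM with 5 of the 9 genes at 0. The sum was not split by gene, so it does not by itself show B-cell RNA in that class. UMIs of a class were summed within a library and expressed as counts per 1e6 UMIs (CPM). CPM is not divided by transcript length, so levels are compared between cells and libraries for 1 gene, and not between genes. A change in the mix of cells within a class and a change of RNA per cell cannot be told apart in such sums. Several members have near-identical pseudogene copies in the mouse genome, and how reads shared with these were counted is not given in the sources used here, so their counts are uncertain to that extent. Barcodes shared between libraries made up at most 1.308% of the smaller library of a pair, over 190 pairs.

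Spleen 4 of Eµ-PRMT5 and spleen 4 of Eµ-PRMT5/TCL1 stood apart from the other libraries in the genes examined. Together the 10 members held 1.09% and 0.787% of B-cell UMIs in these spleens and 0.238% to 0.458% in the other 18 libraries. In T cells the shares were 1.86% and 1.30%, followed by 0.716% in Eµ-TCL1 spleen 1 and 0.696% in Eµ-PRMT5/TCL1 spleen 1. The shares in non-cycling B cells of the same spleens were 0.903% and 0.743%, against at most 0.452% elsewhere. Eµ-PRMT5 spleen 4 also had the most UMIs of all libraries, the deepest B cells (median 16712.5 UMIs per cell, against 4267 in the shallowest library), the lowest sum of B-cell markers, the fewest T cells (42) and 52.75% of B cells in cycle. In Eµ-PRMT5/TCL1 spleen 4 17.3% of B cells were cycling. Myeloid cells were 30.6% of cells in Eµ-PRMT5 spleen 4 and 4.37% in Eµ-PRMT5/TCL1 spleen 4, over a range of 0.315% to 34.2% in all libraries. The B-cell gate set no upper limit on myeloid UMIs. The part of these properties in the results was not tested, and group results are given with and without both spleens, called the spleen 4 pair below, or, between tissues, without the mouse of the second.

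All 10 members matched promoter windows of 300 bases in RefSeq (GRCm38.p6), running from 250 bases before to 50 after an annotated transcript start, in 16 windows. A few of them are shown because they carry different spacings of the core letters ACGTG and GCGTG that the hypoxia-inducible factors bind. The results also turn on these members: the CPM of Slc2a1 and Pgk1 moved in opposite directions in cycling B cells. T cells had a higher CPM of Ldha and a lower CPM of Slc2a1 than B cells. CPM are shares of all UMIs, so these directions need not hold for UMIs per cell. A link between the letters and the levels was not tested. Capitals mark ACGTG or GCGTG on either strand, each line runs 5′ to 3′ on the gene's strand, and overlapping matches run together. The windows lie at chr4:119108495-119108794 (+), chrX:106186850-106187149 (+) and chr7:46845554-46845853 (+).
Slc2a1: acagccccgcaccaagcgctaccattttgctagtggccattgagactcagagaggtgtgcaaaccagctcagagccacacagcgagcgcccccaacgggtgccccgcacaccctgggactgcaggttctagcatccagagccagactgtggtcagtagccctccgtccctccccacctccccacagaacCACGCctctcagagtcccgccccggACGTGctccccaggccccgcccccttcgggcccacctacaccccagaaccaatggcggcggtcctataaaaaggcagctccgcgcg
Pgk1: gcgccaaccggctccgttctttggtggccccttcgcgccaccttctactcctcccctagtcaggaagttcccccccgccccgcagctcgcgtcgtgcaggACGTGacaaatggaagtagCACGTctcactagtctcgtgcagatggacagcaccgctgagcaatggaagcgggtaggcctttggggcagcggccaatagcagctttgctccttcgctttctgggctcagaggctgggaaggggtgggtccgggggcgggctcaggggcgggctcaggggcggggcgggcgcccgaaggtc
Ldha: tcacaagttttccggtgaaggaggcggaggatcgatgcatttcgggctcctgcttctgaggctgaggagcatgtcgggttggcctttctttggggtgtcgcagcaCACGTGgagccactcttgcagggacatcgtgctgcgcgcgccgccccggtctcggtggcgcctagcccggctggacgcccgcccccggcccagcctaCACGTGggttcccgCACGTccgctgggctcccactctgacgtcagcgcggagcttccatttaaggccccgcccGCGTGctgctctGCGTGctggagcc

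Slc2a1 held 1 ACGTG and 1 GCGTG, and Pgk1 2 ACGTG. The Ldha window held 5 ACGTG and 2 GCGTG, with 2 copies of the E-box letters CACGTG, each of which reads as ACGTG on both strands. Of the 16 windows 13 held ACGTG or GCGTG, and 9 of the 10 members had at least 1 such window, with Tpi1 the exception. Some windows of Aldoa overlap each other, as do some of Eno1, so that a site can count in more than 1 of the 13. Of all 32851 windows of this length 43.8% held either core (ACGTG 19.6%, GCGTG 32.4%), and CACGTG was found in 7.15% of windows and in Ldha alone among the members. The 43.8% is a share of windows and not of genes, so it is no background for the 9 of 10 members. These are matches of letters and no record of binding. In the GRCm38 annotation (GENCODE vM21) Slc2a1 (ENSMUSG00000028645) spans chr4:119108711-119137983 (+), Pgk1 (ENSMUSG00000062070) chrX:106187100-106203699 (+) and Ldha (ENSMUSG00000063229) chr7:46841475-46855627 (+), so that these windows lie over the annotated gene start for Slc2a1 and Pgk1 and inside the gene span for Ldha.

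The first question was whether the transgenes differ in glycolysis genes within B cells. No member passed the test between any of the spleen groups. Most members were highest in the spleen 4 libraries, and outside these the groups overlapped for most genes. Slc2a1, which carries glucose across the cell membrane, was measured at 68.1, 83.7, 74.3, 23.2 and 68.6 CPM in Eµ-PRMT5 spleens 1 to 5. The Eµ-TCL1 spleens held 43.0, 38.9, 90.3 and 41.2 CPM and the Eµ-PRMT5/TCL1 spleens 44.4, 29.7, 97.2 and 88.3 CPM. The ranges overlapped, and Slc2a1 was the member for which Eµ-PRMT5 spleen 4 was the lowest of the 20 libraries.

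**Figure D1:**
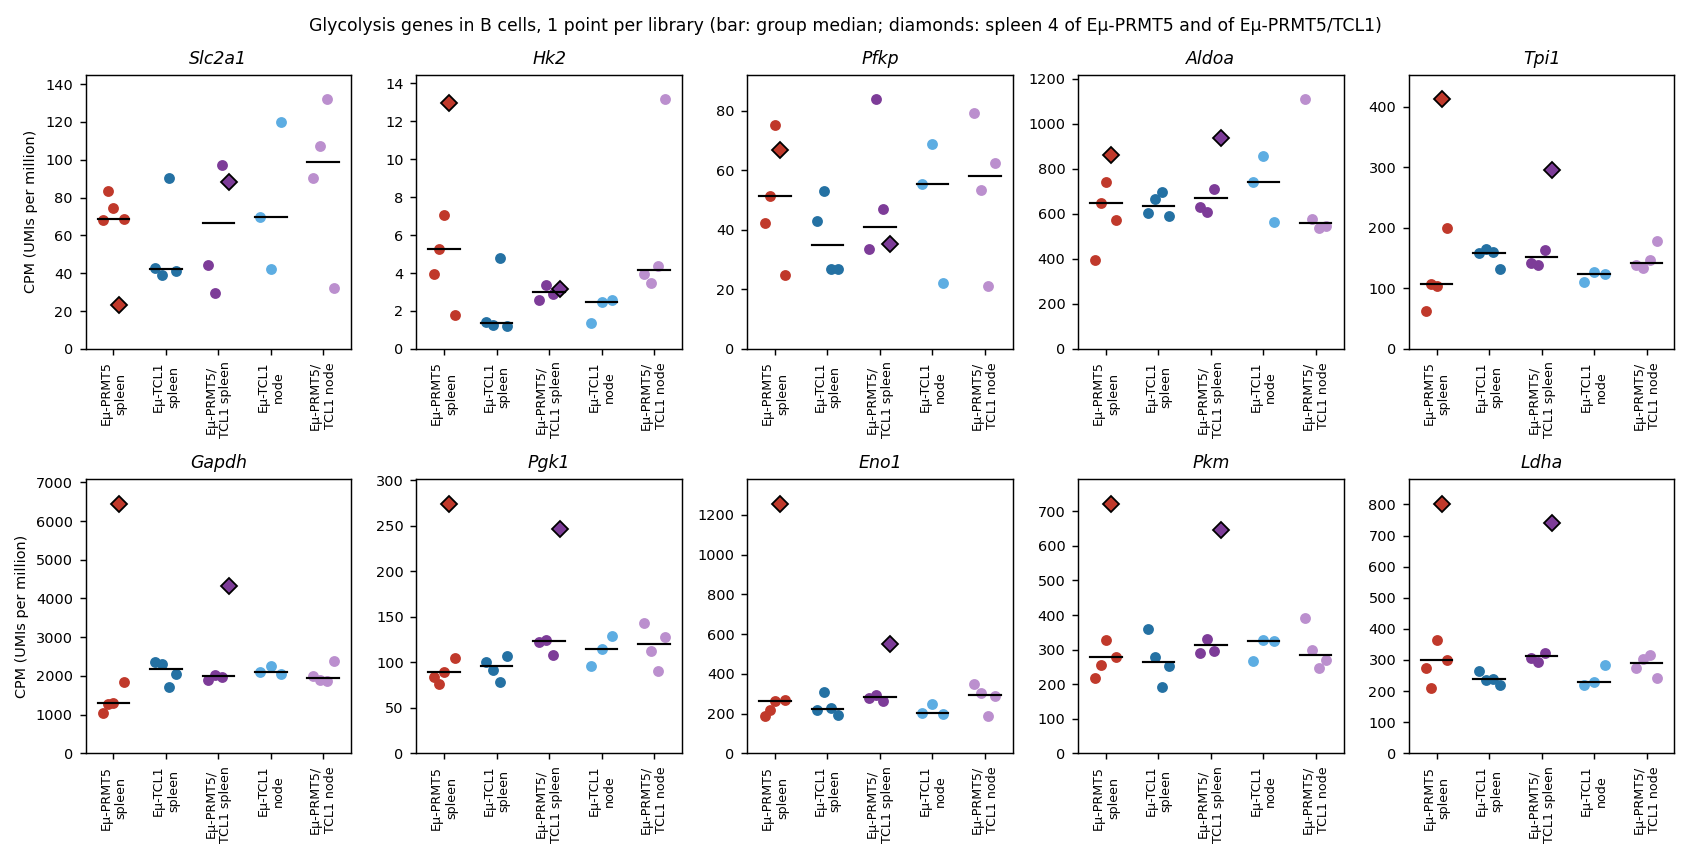
CPM of the 10 members in B cells, 1 panel per gene and 1 point per library, by group, with a bar at the group median. Diamonds mark spleen 4 of Eµ-PRMT5 and spleen 4 of Eµ-PRMT5/TCL1, which lie above the other spleens for Tpi1, Gapdh, Pgk1, Eno1, Pkm and Ldha, while Eµ-PRMT5 spleen 4 is the lowest library for Slc2a1 (23.2 CPM).

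Among the upper enzymes, Hk2, the hexokinase that traps glucose as its phosphate, was sparse, with 2 to 183 UMIs per library. It was at 3.92, 5.28, 7.07, 12.96 and 1.78 CPM in Eµ-PRMT5 spleens, 1.41, 1.29, 4.78 and 1.19 CPM in Eµ-TCL1 spleens and 2.57, 3.38, 2.89 and 3.14 CPM in Eµ-PRMT5/TCL1 spleens. Hk2 gave the largest difference for Eµ-PRMT5 against Eµ-TCL1 spleens (1.56 ± 0.62 on the log2 scale, estimate ± SE, adjusted p = 0.23, edgeR's quasi-likelihood test with Benjamini-Hochberg adjustment over 11541 genes). Pfkp, a phosphofructokinase at the committed step, ranged from 21.3 to 83.9 CPM over the 20 libraries. Aldoa, the aldolase that cleaves the sugar into trioses, ranged from 395.7 to 1108 CPM with its maximum in Eµ-PRMT5/TCL1 lymph node 1. Tpi1, which interconverts the trioses, was at 62.9, 107, 104, 412 and 200.01 CPM in Eµ-PRMT5 spleens, 158, 165, 159.8 and 132 CPM in Eµ-TCL1 spleens and 142, 139, 163 and 296 CPM in Eµ-PRMT5/TCL1 spleens. Tpi1 was thus lower in Eµ-PRMT5 spleens 1 to 3 than in every Eµ-TCL1 spleen, and higher in Eµ-PRMT5 spleens 4 and 5.

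The lower enzymes showed the same spread within groups. Gapdh, which makes NADH at the first of the lower steps, was at 1041, 1274, 1306, 6447 and 1835 CPM in Eµ-PRMT5 spleens, 2354, 2297, 1721 and 2036 CPM in Eµ-TCL1 spleens and 1889, 2024, 1961 and 4332 CPM in Eµ-PRMT5/TCL1 spleens. Without spleen 4, the Eµ-PRMT5 spleens for Gapdh lay below or inside the Eµ-TCL1 range. Eno1, an enolase, was at 189, 219, 263, 1256 and 266 CPM in Eµ-PRMT5 spleens, 216, 307, 229 and 193 CPM in Eµ-TCL1 spleens and 278, 291, 262 and 549 CPM in Eµ-PRMT5/TCL1 spleens. For Eno1 the libraries other than the spleen 4 pair lay between 186.5 and 347.8 CPM, nodes included. In non-cycling B cells alone Eno1 was at 924 and 536 CPM in these 2 spleens, and Gapdh at 5521 and 3852 CPM. Pkm, the pyruvate kinase of the last ATP-yielding step, ranged from 192 to 721.9 CPM over the 20 libraries.

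Pgk1 and Ldha were the 2 members whose Eµ-PRMT5/TCL1 and Eµ-TCL1 spleens did not overlap in B cells, where 3.28% of genes tested had no overlap. Pgk1, which makes the first ATP of the lower steps, was at 122, 125, 108 and 247 CPM in Eµ-PRMT5/TCL1 spleens and 99.999, 91.2, 78.5 and 107 CPM in Eµ-TCL1 spleens. Ldha was at 307, 293, 321 and 742 CPM in Eµ-PRMT5/TCL1 spleens and 263, 237, 238 and 219 CPM in Eµ-TCL1 spleens. The Eµ-PRMT5 spleens overlapped both, with 83.4, 76.2, 89.1, 274 and 105 CPM of Pgk1 and 275, 209.6, 365, 802 and 301 CPM of Ldha. In non-cycling B cells, as defined with the cycling comparison below, Pgk1 overlapped between these groups (93.3 to 214 CPM against 69.9 to 97.8 CPM), and Ldha did not (255 to 736 CPM against 212 to 247 CPM). For non-cycling B cells the share of all genes without overlap was not computed. The median log2 difference of 14 S phase genes was 0.69 in this contrast, with 0 called, and their part was not tested. Neither member passed the test for Eµ-PRMT5/TCL1 against Eµ-TCL1 spleens (Pgk1 0.53 ± 0.46, adjusted p = 1; Ldha 0.63 ± 0.46, adjusted p = 1, edgeR).

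Over all spleens, 0 of 10 members were called in B cells between Eµ-PRMT5 and Eµ-TCL1 (background 0.026% of genes), between Eµ-PRMT5/TCL1 and Eµ-TCL1 (0.00866%) or between Eµ-PRMT5/TCL1 and Eµ-PRMT5 (0%). At an unadjusted p under 0.05 edgeR gave 1973, 520 and 1009 genes in these contrasts, of which 1 member, Hk2, lay in the first. DESeq2 called 679, 21 and 112 genes and no member. The Eµ-TCL1 spleens were the reference in the first 2 contrasts and carry a transgene themselves, so these are no contrasts with wild-type mice. The median log2 difference of the members was 0.44 between Eµ-PRMT5 and Eµ-TCL1, with 9 above 0, against 0.02 over all genes, and 0.35 between Eµ-PRMT5/TCL1 and Eµ-TCL1, with 10 above 0. Leaving out both spleen 4 libraries turned the first median to -0.17, with 4 members above 0, and brought the second to 0.20, with 8 above 0. Without them 671 genes (5.94%) were called between Eµ-PRMT5 and Eµ-TCL1, again with 0 members, and Gapdh came nearest (-0.77 ± 0.21, adjusted p = 0.053, edgeR). In this contrast Eno1 went from 1.01 ± 0.60 to -0.17 ± 0.19 and Tpi1 from 0.29 ± 0.52 to -0.51 ± 0.32. With Eµ-PRMT5 spleen 4 alone left out they were at -0.17 ± 0.22 (adjusted p = 0.65, edgeR) and -0.51 ± 0.33 (adjusted p = 0.33, edgeR), neither called. Between Eµ-PRMT5/TCL1 and Eµ-PRMT5 the median of the members went from -0.10 to 0.35 without the pair, with 8 above 0 and 0 called.

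**Figure D2:**
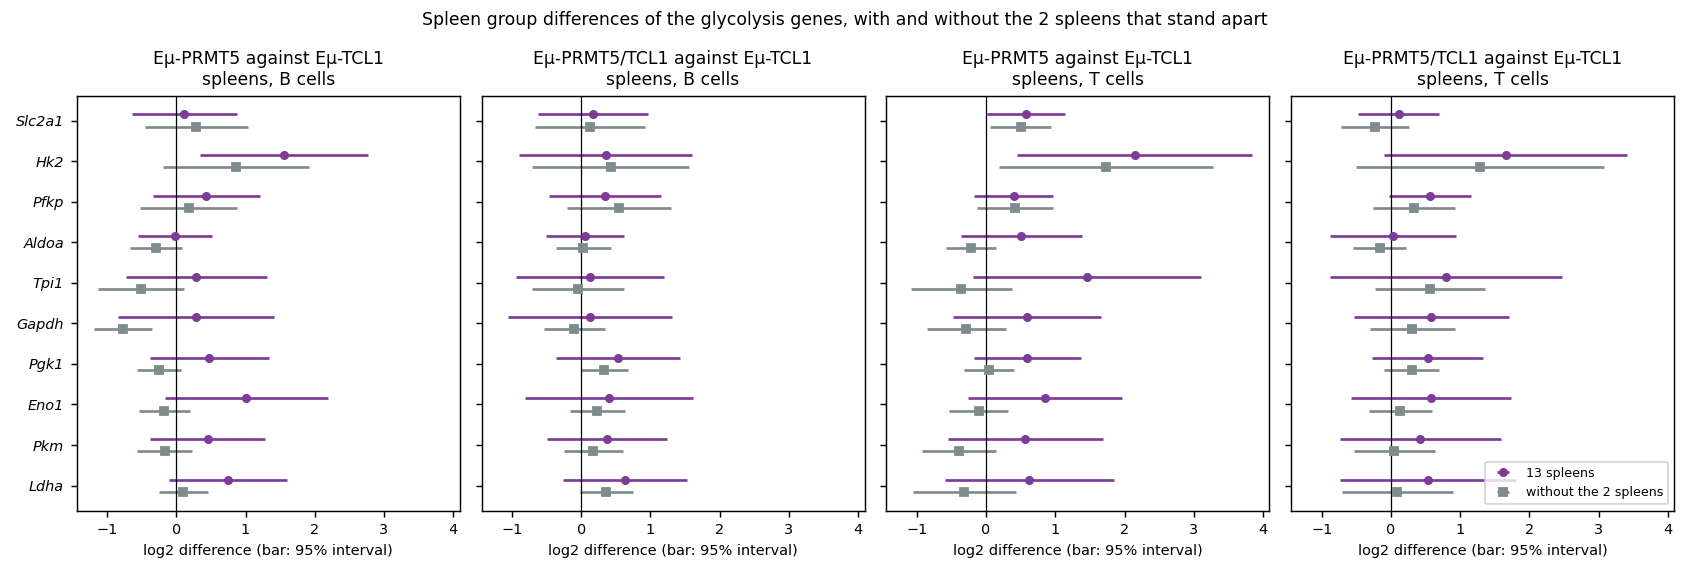
Log2 differences from the Eµ-TCL1 spleens for each member, in B and T cells. Circles use all 13 spleens, squares leave out spleen 4 of Eµ-PRMT5 and spleen 4 of Eµ-PRMT5/TCL1, and bars are approximate confidence intervals of 95% from the SE. In B cells the squares for Eµ-PRMT5 against Eµ-TCL1 lie below the circles for Tpi1, Gapdh, Pgk1, Eno1, Pkm and Ldha, and Gapdh moves from 0.29 to -0.77.

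Since the transgenes are driven in B cells, T-cell values were read beside those of B cells from the same spleens. The same 2 spleens were the highest for Aldoa, Tpi1, Gapdh, Pgk1, Eno1, Pkm and Ldha. Eno1 was at 257, 351, 245, 1671 and 321.9 CPM in T cells of Eµ-PRMT5 spleens, 467, 256, 299.5 and 246 CPM in Eµ-TCL1 spleens and 428, 328, 302 and 1127 CPM in Eµ-PRMT5/TCL1 spleens. Ldha reached 2228 CPM in Eµ-PRMT5 spleen 4, from 42 T cells, and 1747 CPM in Eµ-PRMT5/TCL1 spleen 4, and the other spleens lay between 250.8 and 935.7 CPM. Tpi1 was at 54.5, 28.5, 45.9, 691 and 60.2 CPM in Eµ-PRMT5 spleens, 87.0, 57.9, 67.7 and 34.8 CPM in Eµ-TCL1 spleens and 167, 68.0, 55.6 and 203 CPM in Eµ-PRMT5/TCL1 spleens. Outside the spleen 4 pair, T cells of Eµ-PRMT5/TCL1 spleen 1 and Eµ-TCL1 spleen 1 were the highest spleens for Gapdh, Pkm and Ldha. Cycling cells, as defined below, were 42.9% and 11.8% of T cells in the pair and 18.5% and 4.98% in these spleens. They were 0.234% to 6.98% in the others. In non-cycling T cells Ldha was at 2164 and 1498 CPM in the pair, 584 and 861 CPM in these spleens and 247 to 561 CPM in the others. The part of cycling was not tested.

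**Figure D3:**
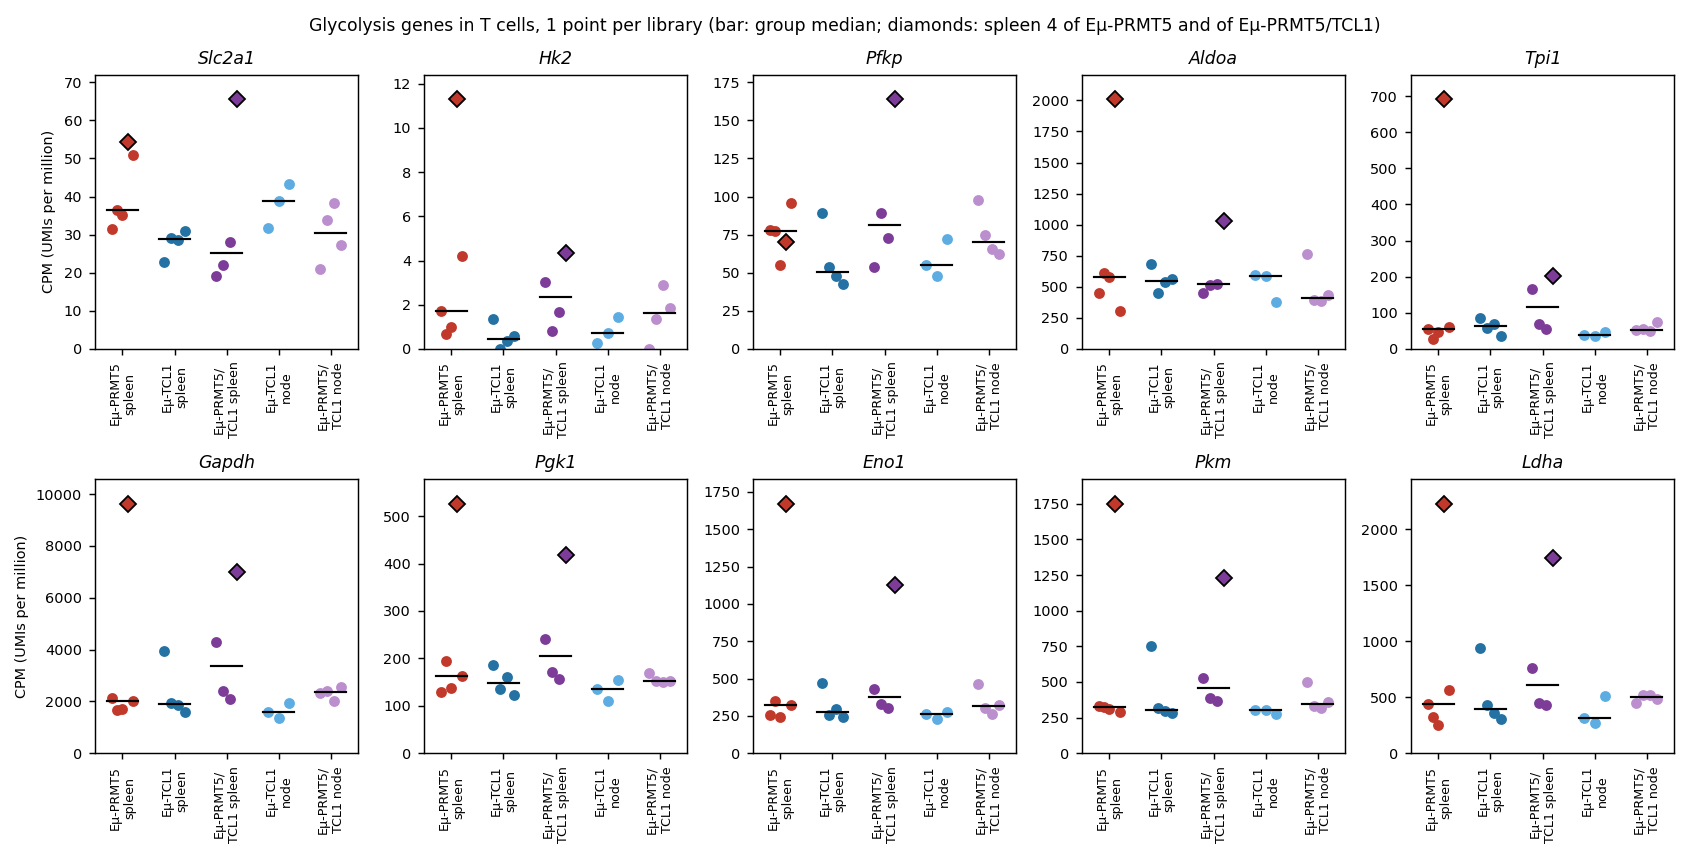
CPM of the 10 members in T cells, 1 panel per gene and 1 point per library, by group, with a bar at the group median. Diamonds mark spleen 4 of Eµ-PRMT5 (42 T cells) and spleen 4 of Eµ-PRMT5/TCL1, which are the 2 highest libraries for Aldoa, Tpi1, Gapdh, Pgk1, Eno1, Pkm and Ldha.

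No member was called in T cells for Eµ-PRMT5 against Eµ-TCL1 spleens (background 0.0279%), for Eµ-PRMT5/TCL1 against Eµ-TCL1 spleens (0%) or for Eµ-PRMT5/TCL1 against Eµ-PRMT5 spleens (0%). At an unadjusted p under 0.05 edgeR gave 720, 671 and 504 genes, with Hk2 the 1 member, in the first contrast, and DESeq2 called 26, 0 and 7 genes and no member. Slc2a1 was the 1 member without overlap for Eµ-PRMT5 against Eµ-TCL1 spleens in T cells (31.4 to 54.2 CPM against 22.9 to 31.1 CPM), where 2.26% of genes did not overlap, and its difference was 0.58 ± 0.29, adjusted p = 0.77 (edgeR). In non-cycling T cells it did not overlap either (31.3 to 49.7 CPM against 23.5 to 30.5 CPM), where the share of all genes without overlap was not computed. The 10 stress genes separated the same T cells, at a summed 488 to 869 CPM in Eµ-PRMT5 and 86.3 to 213 CPM in Eµ-TCL1 spleens. Of 9 stress genes tested, Jun and Hspa1b were called higher (list median 2.21), 2 of the 3 genes called in the contrast, and their part in the Slc2a1 difference was not tested. The median of the members in this contrast went from 0.59 to -0.16 without the spleen 4 pair, and from 0.55 to 0.22 for Eµ-PRMT5/TCL1 against Eµ-TCL1 and from -0.21 to 0.25 for Eµ-PRMT5/TCL1 against Eµ-PRMT5 spleens.

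In myeloid cells of the spleens Pkm was at 1258, 1453, 1591, 1714 and 752 CPM in Eµ-PRMT5 spleens, 1451, 1161, 1650.2 and 1583 CPM in Eµ-TCL1 spleens and 1028, 1130.1, 1484 and 2662 CPM in Eµ-PRMT5/TCL1 spleens, and all groups overlapped. No member was called in any spleen contrast, where the background was 0% each. Unadjusted p fell under 0.05 for 318 genes between Eµ-PRMT5 and Eµ-TCL1, 141 between Eµ-PRMT5/TCL1 and Eµ-TCL1 and 305 between Eµ-PRMT5/TCL1 and Eµ-PRMT5 (edgeR), and DESeq2 called 2, 0 and 0 genes. Hk2 was the 1 member among the 305. It was at 9.90, 10.6, 11.9 and 6.74 CPM in Eµ-PRMT5/TCL1 and 13.9, 25.3, 12.4, 19.2 and 17.3 CPM in Eµ-PRMT5 spleens. These Hk2 ranges did not overlap, as for 1.09% of genes, and the difference was -0.83 ± 0.30, adjusted p = 1 (edgeR). In non-cycling myeloid cells Hk2 overlapped (6.50 to 14.9 CPM against 13.95 to 27.6 CPM), and without the spleen 4 pair its difference was -0.54 ± 0.30. Medians of the members were -0.05, 0.00 and 0.11 in the same order, and -0.20, -0.10 and 0.06 without the pair, with 0 members called.

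Lymph nodes gave a second comparison of Eµ-PRMT5/TCL1 with Eµ-TCL1. In B cells Hk2 was at 3.97, 3.46, 4.35 and 13.1 CPM in Eµ-PRMT5/TCL1 nodes and 1.37, 2.47 and 2.60 CPM in Eµ-TCL1 nodes, without overlap. Tpi1 was at 139, 133, 146 and 179 CPM against 110.0, 127 and 123 CPM, also without overlap, and 6.29% of genes had none. In non-cycling B cells neither Hk2 (2.94 to 11.2 CPM against 1.79 to 2.52 CPM) nor Tpi1 (123.1 to 151 CPM against 103 to 122.7 CPM) overlapped. The gap for Tpi1 was narrow, and the share of all genes without overlap was not computed for non-cycling cells. Ldha, which did not overlap in spleens, overlapped here at 275, 302, 316.9 and 240.4 CPM against 218, 227 and 284 CPM. None of the 10 members was called (background 0% in B cells), with Hk2 at 1.55 ± 0.64, adjusted p = 0.73 and Tpi1 at 0.39 ± 0.23, adjusted p = 0.83 (edgeR). At an unadjusted p under 0.05 there were 735 genes with Hk2 as the 1 member, and DESeq2 called 63 genes and no member.

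In T cells of the nodes Tpi1, Gapdh and Pkm did not overlap between genotypes, where 9.81% of genes had no overlap. Gapdh was at 2338, 2404, 2008 and 2563 CPM in Eµ-PRMT5/TCL1 nodes and 1606, 1343 and 1941 CPM in Eµ-TCL1 nodes. Pkm was at 498, 329, 315 and 357 CPM against 305, 305 and 273 CPM, and Tpi1 at 52.7, 54.2, 51.0 and 74.0 CPM against 39.6, 36.8 and 45.8 CPM. Each was higher in the Eµ-PRMT5/TCL1 nodes, and none was called (background 0% in node T cells). In non-cycling T cells all 3 overlapped, at 41.6 to 58.7 CPM against 34.3 to 46.7 CPM for Tpi1, 1818 to 2303 CPM against 1286 to 1899 CPM for Gapdh and 281 to 451 CPM against 271 to 297 CPM for Pkm. The 14 S phase genes had a median log2 difference of 0.72 in node T cells, with 0 called, and their part was not tested. The members with an unadjusted p under 0.05 were Hk2 (1.96 ± 0.67), Tpi1 (0.67 ± 0.24), Pkm (0.41 ± 0.15) and Eno1 (0.45 ± 0.18), 4 of 1525 genes, with adjusted p of 0.25 to 0.31 (edgeR). DESeq2 called 136 genes and no member. The genotype contrast in node myeloid cells was not fitted, since 1 Eµ-TCL1 node had 20 or more such cells.

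The 7 mice with both tissues allowed node and spleen to be compared within a mouse. Slc2a1 was higher in B cells of the node in 7 of 7 mice, at 31.99 to 131.9 CPM in nodes and 29.7 to 97.2 CPM in spleens (0.64 ± 0.19, adjusted p = 0.25, edgeR with the mouse as a block). Hk2 was higher in B cells of the node in 6 of 7 mice (0.87 ± 0.26, adjusted p = 0.25). Ldha and Tpi1 were each higher in the node in 1 of 7 mice, at -0.20 ± 0.18 and -0.24 ± 0.17. No member passed the test in B cells (background 0.00911%). In T cells Slc2a1 was higher in the node in 6 of 7 mice (0.39 ± 0.22, adjusted p = 0.53, edgeR) and Pkm in 0 of 7 (-0.40 ± 0.21, adjusted p = 0.48, edgeR), with 0 of 9 members called (0.00991%). In myeloid cells of 4 mice Slc2a1 was again higher in every node, at 0.79 ± 0.26, adjusted p = 0.18 (edgeR), with 0 of 9 called (1.25%). Hk2 was not tested in T or myeloid cells there because its counts were too low. Without the mouse of Eµ-PRMT5/TCL1 spleen 4, Slc2a1 was at 0.70 ± 0.20 in B cells (adjusted p = 0.17, edgeR) and 0.59 ± 0.13 in T cells (adjusted p = 0.12, edgeR), and 0 members were called. That mouse was not among the 4 for myeloid cells. Stress genes had median node differences of 0.61 in B, 0.84 in T and 0.95 in myeloid cells, where 1 of them, Dusp1, was called higher, and their part in these differences was not tested.

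Unadjusted p fell under 0.05 for 1230 genes between tissues in B cells, with Slc2a1 and Hk2 among them, for 1197 in T cells and for 892 in myeloid cells, and DESeq2 called 272, 146 and 102 genes without a member. The tissue difference in B cells was also compared between the genotypes. No gene was called (background 0%), with 191 genes and 0 members at an unadjusted p under 0.05 in edgeR and 2 genes called by DESeq2. For Slc2a1 the genotypes' tissue differences differed by -0.15 ± 0.41.

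Between cell classes of the same library the members differed widely. Myeloid cells were above B cells for 9 of 10 members and above T cells for 8. B cells had the most Slc2a1, and T cells had the least Hk2 and Tpi1. These comparisons used all 20 libraries for B and T cells and 17 with at least 20 myeloid cells, with the library as a block. A mouse with both tissues entered as separate libraries, so sample sizes and p-values here count libraries and not mice.

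**Figure D4:**
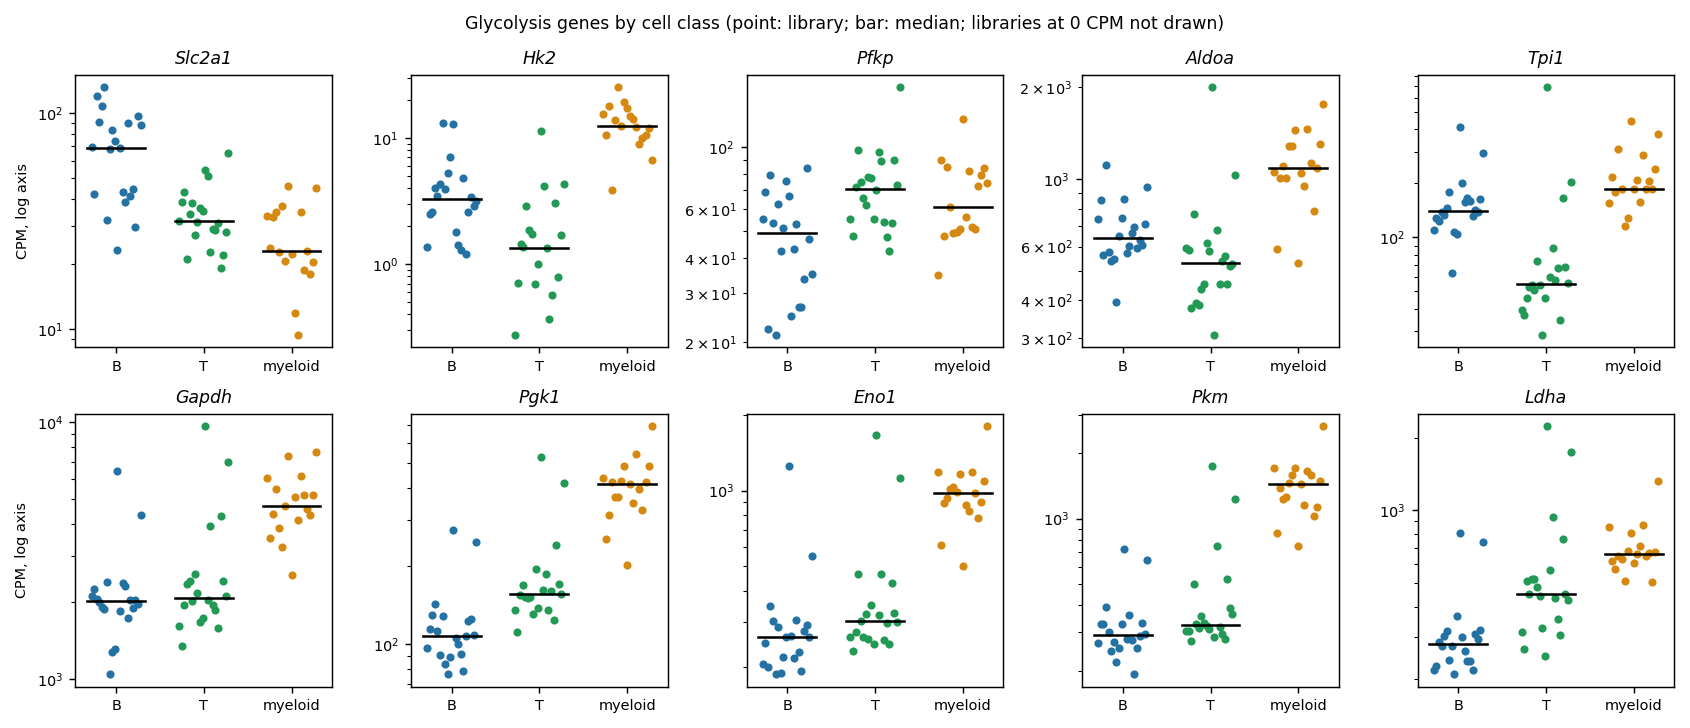
CPM (log axis) of each member in B, T and myeloid cells, 1 point per library; libraries at 0 are not drawn. Myeloid medians lie above B medians for Hk2, Gapdh, Pgk1, Eno1, Pkm and Ldha, and the B median is the highest of the classes for Slc2a1 (69.1 CPM).

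Slc2a1 was at 23.2 to 132 (median 69.1) CPM in B cells, 19.2 to 65.5 (median 31.6) CPM in T cells and 9.40 to 46.1 (median 23.1) CPM in myeloid cells. It was lower in T than B cells in 19 of 20 libraries (-0.93 ± 0.14, adjusted p = 4.1e-07, edgeR) and lower in myeloid than B cells in 15 of 17 (-1.16 ± 0.16, adjusted p = 5.9e-08, edgeR). T and myeloid cells did not differ beyond the error for Slc2a1 (-0.23 ± 0.16, adjusted p = 0.21, edgeR). Hk2 was highest in myeloid and lowest in T cells, at 1.19 to 13.1 (median 3.26) CPM in B cells, 0 to 11.3 (median 1.35) CPM in T cells and 3.87 to 25.3 (median 12.4) CPM in myeloid cells. Its difference was 1.98 ± 0.29 between myeloid and B cells, higher in 16 of 17 libraries, and -1.23 ± 0.29 between T and B cells, higher in 3 of 20. In 2 libraries no Hk2 UMI was seen in T cells, which allows up to 3 UMIs in each, and such limits cover counting error only.

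Pfkp was higher in T than B cells (0.62 ± 0.14, adjusted p = 0.0002, edgeR) and in myeloid than B cells (0.66 ± 0.16, adjusted p = 0.00023, edgeR), at medians of 49.1 CPM in B, 70.9 CPM in T and 60.7 CPM in myeloid cells. Aldoa was at 396 to 1108 (median 639) CPM in B cells, 307 to 2007 (median 531) CPM in T cells and 530.0 to 1767 (median 1083) CPM in myeloid cells. Its T-cell level was lower than that of B cells by a small margin (-0.26 ± 0.10, adjusted p = 0.025, edgeR), and this call was lost under stricter class gates (-0.18, adjusted p = 0.11). Tpi1 was at 62.9 to 412 (median 141) CPM in B cells, 28.5 to 691 (median 55.0) CPM in T cells and 116 to 446 (median 187) CPM in myeloid cells. B cells had more Tpi1 than T cells in 18 of 20 libraries (-1.12 ± 0.14, adjusted p = 2.1e-09, edgeR), and Eµ-PRMT5 spleen 4 and Eµ-PRMT5/TCL1 spleen 1 were the 2 exceptions.

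All lower enzymes and Ldha were highest in myeloid cells. Pkm was at 192 to 722 (median 292) CPM in B cells, 273 to 1749.7 (median 325) CPM in T cells and 752 to 2662 (median 1451) CPM in myeloid cells, and was higher in myeloid than B cells in 17 of 17 libraries (2.32 ± 0.13, adjusted p = 2e-18, edgeR). Eno1 and Pgk1 showed differences of 1.96 ± 0.15 and 1.95 ± 0.13 between myeloid and B cells, and Gapdh 1.33 ± 0.14. Ldha was at 209.6 to 802 (median 279.8) CPM in B cells, 251 to 2228 (median 451) CPM in T cells and 505 to 1328 (median 663) CPM in myeloid cells. For Ldha T cells lay above B cells in 19 of 20 libraries (0.80 ± 0.12, adjusted p = 2.4e-07, edgeR), and myeloid cells above T cells in 13 of 17 (0.51 ± 0.13, adjusted p = 0.00055, edgeR). T cells also had more Pgk1 (0.60 ± 0.12), Pkm (0.40 ± 0.12) and Eno1 (0.35 ± 0.13) than B cells, and Gapdh did not pass (0.24 ± 0.13, adjusted p = 0.094, edgeR).

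Of the 10 members 5 were called higher (background 31.9%) and 4 lower (35.5%) in T than B cells, 9 higher (34.1%) and 1 lower (39.4%) in myeloid than B cells, and 8 higher (35%) and 0 lower (39.9%) in myeloid than T cells. Medians were 0.30, 1.32 and 1.26 for the members and -0.03, -0.08 and -0.08 for all 11380 genes. With the spleen 4 pair left out 9, 10 and 8 members were called in either direction. These counts were the same with all libraries, where 67.5%, 73.5% and 74.8% of all genes were called in either direction. The B-cell markers summed to 573.8 to 20264 CPM in myeloid cells, which does not by itself show B-cell RNA there. The part of any B-cell RNA in these differences was not tested.

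The myeloid class held neutrophils and other myeloid cells, and was divided, after the data were seen, at 20 UMIs of S100a8 and S100a9 (13 libraries with 20 or more cells above, 17 below). Median Hk2 was 17.8 CPM above and 9.70 CPM below, and median Pkm 1629 and 1241 CPM. Slc2a1 (14.6 against 28.5 CPM) and Pfkp (32.1 against 89.3 CPM) had the opposite order. For Pfkp the ranges did not overlap (11.0 to 48.9 against 65.3 to 124 CPM), and the share of all genes without overlap was not computed for this split. Eno1 was similar, at 1026 and 963 CPM. Both sets of cells had medians above the B-cell medians for every member but Slc2a1 and Pfkp, and for Pfkp the S100a8 and S100a9 rich cells lay below.

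The next question was which members go with division. Cells were called cycling when at least 2 UMIs of 20 mitosis genes remained after thinning the cell to 1500 UMIs, and non-cycling when none did. In B cells of 14 libraries, 9 of the 10 members passed the test: Slc2a1 and Aldoa were lower in cycling cells and Hk2, Tpi1, Gapdh, Pgk1, Eno1, Pkm and Ldha were higher. Cycling B cells had a median of 2.16 times the UMIs of non-cycling ones (1.46 to 2.78 over libraries). CPM are shares of all UMIs, so a fall in CPM with cycling, in any class, does not show fewer UMIs per cell. Spleen 4 was the only Eµ-PRMT5 spleen with enough cycling B cells to enter. As in the class fits, the node and spleen of a mouse counted as separate libraries in all cycling fits, and not as 1 mouse.

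**Figure D5:**
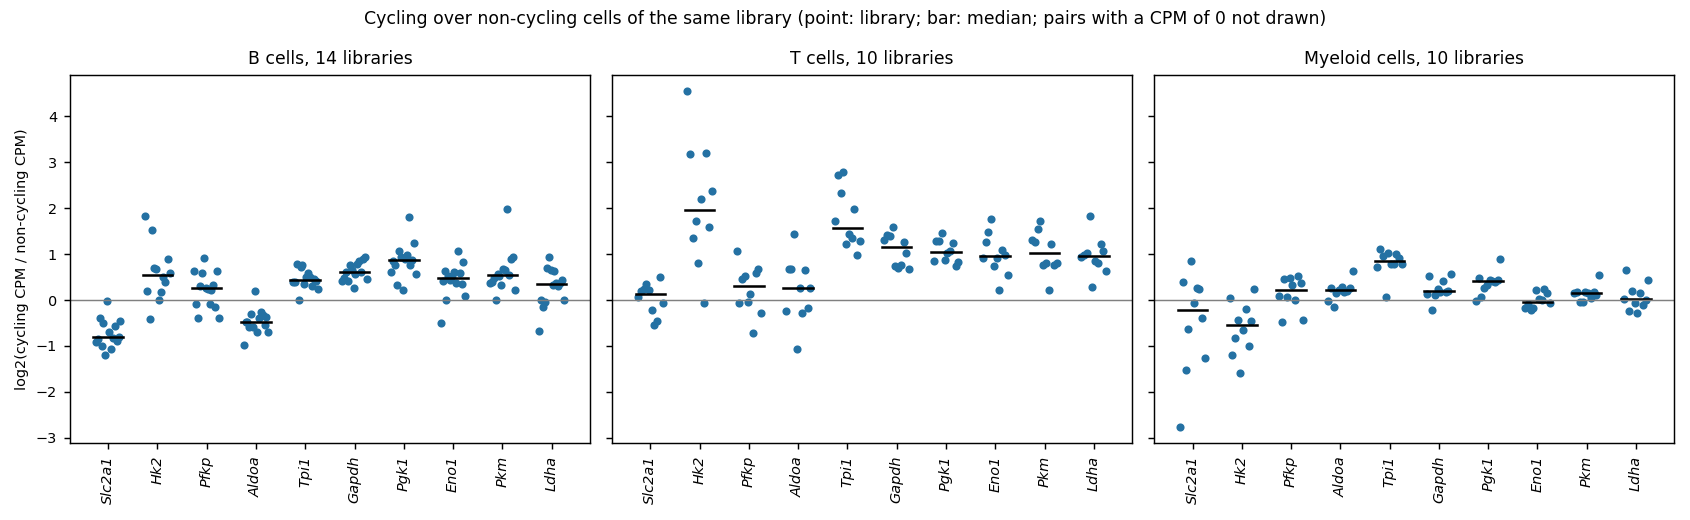
Log2 ratio of CPM in cycling to non-cycling cells for each member in B, T and myeloid cells, 1 point per library; pairs with a 0 are not drawn. In B cells the Slc2a1 points lie below 0 in all 14 libraries and the Pgk1 points above 0 in all 14, and in T cells Tpi1 lies above 0 in all 10.

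Slc2a1 was at 15.9 to 94.9 (median 35.5) CPM in cycling and 23.2 to 124 (median 62.8) CPM in non-cycling B cells. It was lower in cycling cells in 14 of 14 libraries (-0.71 ± 0.08, adjusted p = 2e-07, edgeR), a fold of 0.61. Aldoa was at 399 to 876 (median 491) CPM in cycling and 579.7 to 1197 (median 686) CPM in non-cycling B cells, and was lower in 13 of 14 libraries (-0.50 ± 0.07, adjusted p = 2.3e-06, edgeR). These 2 members fell, whereas Tpi1, also an upper enzyme, rose in 14 of 14 libraries (0.42 ± 0.06, adjusted p = 6.1e-06, edgeR). Hk2 was at 0 to 18.2 (median 3.15) CPM in cycling and 1.18 to 11.2 (median 2.66) CPM in non-cycling B cells and was higher in 10 of 14 libraries (0.51 ± 0.21, adjusted p = 0.049, edgeR), a call that DESeq2 did not give (0.46, adjusted p = 0.13). Pfkp did not pass (0.19 ± 0.09, adjusted p = 0.11, edgeR).

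Pgk1 changed most among the members, at 135 to 318 (median 202) CPM in cycling and 69.9 to 243 (median 103) CPM in non-cycling B cells. It was higher in 14 of 14 libraries (0.81 ± 0.09, adjusted p = 2.4e-07, edgeR), a fold of 1.75. Gapdh was at 2478 to 6639 (median 3055) CPM in cycling and 1646 to 5521 (median 1923) CPM in non-cycling B cells and also rose in 14 of 14 libraries (0.59 ± 0.06, adjusted p = 9.4e-08, edgeR). Pkm rose in 14 of 14 libraries (0.57 ± 0.10, adjusted p = 8.7e-05, edgeR) and Eno1 in 13 of 14 (0.41 ± 0.08, adjusted p = 0.00019, edgeR). Ldha, at the end of the pathway, rose least, in 10 of 14 libraries (0.26 ± 0.09, adjusted p = 0.023, edgeR), and lost its call without Eµ-PRMT5/TCL1 lymph node 2, Eµ-PRMT5/TCL1 lymph node 4 or Eµ-TCL1 spleen 2 (adjusted p = 0.054, 0.061 and 0.051).

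Thus 7 of 10 members were called higher in cycling B cells, where 22.8% of 9632 genes were, and 2 lower, where 26.6% were. The median of the members was 0.42, and that of all genes -0.05. Without the spleen 4 pair 9 of 9 members tested were called, with Pfkp at 0.25 ± 0.10, adjusted p = 0.042 (edgeR) and Hk2 not tested. Other measures moved with the state of the cells. The 9 B-cell markers summed to a median of 14818 CPM in cycling and 22524 CPM in non-cycling B cells, and the 10 stress genes to 593.3 and 1177 CPM. The 9 neutrophil markers reached 18616 CPM in cycling B cells of 1 library, from a median of 47.5 CPM. Myeloid RNA was not limited by the B-cell gate. The part of these measures was not tested.

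T cells of 10 libraries gave 6 of 9 tested members higher in cycling cells (background 24.5%) and 0 lower (27.2%). Each of them was higher in 10 of 10 libraries. Tpi1 changed most, at 103 to 354 (median 203) CPM in cycling and 37.0 to 145 (median 50.5) CPM in non-cycling T cells (1.60 ± 0.15, adjusted p = 1.1e-07, edgeR), a fold of 3.04. Gapdh rose by 0.90 ± 0.08, Pgk1 by 0.88 ± 0.08, Pkm by 0.86 ± 0.11 and Eno1 by 0.81 ± 0.11 on the log2 scale. Ldha was at 580.2 to 2339.7 (median 986) CPM in cycling and 304 to 1498 (median 492) CPM in non-cycling T cells (0.77 ± 0.11, adjusted p = 1.1e-05, edgeR). Slc2a1 (-0.10 ± 0.11), Pfkp (0.10 ± 0.13) and Aldoa (0.05 ± 0.17) did not pass, and Hk2 was too sparse to be tested. Medians were 0.81 for the members and -0.06 for all genes. The 6 NK-cell markers summed to a median of 1559 CPM in cycling and 647.2 CPM in non-cycling T cells, and cycling T cells had 1.91 times the UMIs per cell; the part of either was not tested.

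In myeloid cells of 10 libraries 2 members, Tpi1 and Pgk1, were higher in cycling cells (background 28.1%) and 2, Hk2 and Eno1, were lower (31.1%). Hk2 was at 6.50 to 18.8 (median 7.85) CPM in cycling and 6.50 to 23.7 (median 14.9) CPM in non-cycling myeloid cells, higher in 2 of 10 libraries (-0.94 ± 0.18, adjusted p = 0.00034, edgeR). Tpi1 was at 193 to 480.0 (median 283) CPM in cycling and 99.4 to 431 (median 142) CPM in non-cycling myeloid cells, higher in 10 of 10 (0.65 ± 0.08, adjusted p = 1.3e-05, edgeR). Pgk1 (0.22 ± 0.08, adjusted p = 0.034) and Eno1 (-0.16 ± 0.06, adjusted p = 0.023) moved little, and both lost their call without the spleen 4 pair (edgeR). The granule progenitor genes Mpo, Elane, Prtn3 and Ctsg summed to a median of 5768 CPM in cycling and 603 CPM in non-cycling myeloid cells, and the B-cell markers to 1835 and 5064 CPM. The B-cell sum does not by itself show B-cell RNA. Cycling myeloid cells had a median of 2.33 times the UMIs per cell. The part of these differences and of cell make-up was not tested.

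The cycling difference itself was compared between classes in 1 fit over 19 libraries, of which 14 gave B-cell, 10 T-cell and 10 myeloid differences. Only some libraries gave both classes of a contrast. The contrasts were thus in part between different mice, tissues and genotypes. Hk2 entered this fit through B and myeloid cells and is not read where T cells are compared, since it was too sparse for the T-cell fit. Against B cells, T cells had a higher cycling difference for Slc2a1, Aldoa, Tpi1, Eno1 and Ldha, 5 of 9 members (background 7.41%), and a lower one for 0 (8.87%). Tpi1 gave the largest value (1.15 ± 0.14, adjusted p = 2.2e-07, edgeR), and was the 1 member that kept its call under every alternative and with each library left out. Slc2a1 differed by 0.58 ± 0.19, adjusted p = 0.027 (edgeR), with a fall in B cells and no called change in T cells. The number of members called ranged from 1 to 6, Hk2 counted, over fits that left out 1 library. It was 2, 1 and 2 without Eµ-TCL1 lymph nodes 1, 2 and 3, and 1, 3, 3 and 2 without Eµ-PRMT5/TCL1 lymph nodes 1 to 4. It was 3 without Eµ-TCL1 spleen 1, 2 or 4 or Eµ-PRMT5/TCL1 spleen 2. Called with S phase genes in place of mitosis genes, the Eno1 and Ldha differences were -0.10 and -0.19, and so turned direction.

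Myeloid cells had a lower cycling difference than B cells for Hk2 (-1.48 ± 0.29), Gapdh (-0.56 ± 0.11), Pgk1 (-0.65 ± 0.12), Eno1 (-0.63 ± 0.12), Pkm (-0.64 ± 0.14) and Ldha (-0.40 ± 0.15), 6 of 10 members (15.7%). It was higher for Aldoa (0.49 ± 0.16), 1 of 10 (8.37%). Against T cells the myeloid cycling difference was lower for 6 of 9 members (14.8%), from -0.68 ± 0.13 for Pgk1 to -0.99 ± 0.13 for Eno1, and higher for 0 (12.3%). The CPM of Hk2 thus fell with cycling in myeloid cells. Its rise in B cells was near the threshold and lost under several alternatives, DESeq2 among them. Cycling B cells held 126 Hk2 UMIs in Eµ-PRMT5 spleen 4 and 0 to 31 in each other library. The medians over members were 0.36, -0.48 and -0.84 for T against B, myeloid against B and myeloid against T cells (Hk2 left out of the first and last), with -0.08, -0.06 and 0.01 over all genes.

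The cycling difference in B cells could be compared between genotypes in 7 spleens that carry TCL1, with or without PRMT5. No gene was called (background 0%) by edgeR or DESeq2, with 224 genes and 0 members at an unadjusted p under 0.05. Pgk1 differed by -0.18 ± 0.22 and Slc2a1 by 0.08 ± 0.20 on the log2 scale.

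The rest of the pathway was described from fixed lists. Of 21 other glycolysis genes (isozymes, Pgam1, and glucose and lactate transporters) 8 were tested between cycling and non-cycling B cells, with 2 called higher (22.8% of all genes) and 2 lower (26.6%). The lactate transporter Slc16a1 rose (0.83 ± 0.20), and the isozymes Eno2 (-0.63 ± 0.20) and Pfkl (-0.37 ± 0.11) fell. In cycling T cells 2 of 8 were higher (24.5%) and 1 lower (27.2%), with the lactate exporter Slc16a3 at 1.12 ± 0.35, Pgam1 at 0.27 ± 0.08 and the glucose transporter Slc2a3 at -0.62 ± 0.22. In cycling myeloid cells 2 of 11 were higher (28.1%) and 3 lower (31.1%), and both Slc2a3 (-1.68 ± 0.32) and Slc16a3 (-1.26 ± 0.07) fell while Slc16a1 rose (1.00 ± 0.22). Between classes, 10 of 15 were higher in myeloid than B cells (34.1%) and 2 lower (39.4%). The shares of these genes called with cycling are near or below those of all genes.

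Regulators of the flow through glycolysis were counted next. In cycling B cells 0 of 7 regulators tested were higher and 4 lower (22.8% and 26.6% of all genes), among them Pdk2 (-1.01 ± 0.20), a kinase that shuts pyruvate dehydrogenase, and the bifunctional enzymes Pfkfb4 (-0.98 ± 0.19) and Pfkfb3 (-0.66 ± 0.14), which set the activator of phosphofructokinase. In T cells 1 of 4 was higher, Pdk3 (0.72 ± 0.15), and 1 lower, Pdk1 (-0.83 ± 0.21), near the 24.5% and 27.2% of all genes, and in myeloid cells 0 of 5 were higher and 2 lower (28.1% and 31.1%). Hypoxia-response genes gave 1 higher and 7 lower of 13 in cycling B cells (22.8% and 26.6%), with Ndrg1 (-0.57 ± 0.16), Kdm3a (-0.55 ± 0.11) and P4ha1 (-0.51 ± 0.13) lower. The same list gave 5 higher and 3 lower of 12 in cycling T cells (24.5% and 27.2%), with Ddit4 (1.87 ± 0.13) and Ndrg1 (1.47 ± 0.23) higher, and 1 higher and 5 lower of 14 in myeloid cells (28.1% and 31.1%).

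Pentose phosphate genes, which turn glucose into ribose for nucleotides, gave 3 higher and 0 lower of 7 in cycling B cells (22.8% and 26.6% of all genes), namely Tkt (0.58 ± 0.10), Rpia (0.54 ± 0.07) and Pgd (0.25 ± 0.09). In T cells 3 of 7 were higher (24.5%) and 0 lower (27.2%), with Tkt at 0.98 ± 0.10, and in myeloid cells 2 were higher (28.1%), Rpia among them (1.21 ± 0.11), and 2 lower (31.1%). Each of the 7 was higher in myeloid than T cells (35%). The 17 genes of pyruvate entry and the tricarboxylic acid cycle gave 6, 7 and 10 higher and 0, 1 and 0 lower in cycling B, T and myeloid cells, where 22.8%, 24.5% and 28.1% of all genes were higher and 26.6%, 27.2% and 31.1% lower. Fh1, the fumarase, was called in each, at 0.67 ± 0.09, 0.92 ± 0.14 and 0.97 ± 0.09. None of the genes of these lists was called between spleen groups, between node genotypes or between tissues.

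Over the 20 B-cell libraries the genes whose log2 CPM followed the mean of the members most closely were C1qbp (Pearson's r = 0.958), Phb2 (0.917), Ran (0.912), 9130401M01Rik (0.91) and Eif5a (0.903), of 11860 genes. C1qbp and Phb2 encode mitochondrial proteins, Ran a GTPase of nuclear transport and Eif5a a translation factor. Without the spleen 4 pair (18 libraries) the same correlations were 0.84, 0.65, 0.63, 0.68 and 0.62. Among the members Eno1 followed the mean most closely (0.947 over 20 libraries and 0.786 over 18) and Slc2a1 least (-0.212 and 0.159). The mean holds the members themselves, and the points share library, depth and normalization, so these values are a description.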

How the data were processed

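Live cells had been processed with 10x Genomics 3′ v2 chemistry. The deposited files are unfiltered matrices of UMI counts, whole-number values that the authors made with Cell Ranger and did not normalize. The submitters' processing notes name Cell Ranger 2.0.1, Seurat 2.2.1 and GRCm38, whereas the matrix headers give software version 3.1.0, and the annotation release is not given in the sources used here. Each matrix held 31053 genes and 737280 barcodes. The labels gave each sample's group, tissue and mouse.

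The 3000 largest barcodes were ranked, and a barcode was called at their 99th percentile divided by 10, given 200 or more genes and no more than 10% mitochondrial UMIs. Scrublet (scanpy 1.11.5, Python 3.11.15) scored doublets, and the highest scores were removed at 0.8% per 1000 cells, which took 3542 of 87773 called barcodes. T cells had at most 1 UMI of Cd79a and Cd79b and a myeloid sum below 10. Myeloid cells had at most 1 UMI of Cd79a and Cd79b and no UMI of the Cd3 genes, Ncr1 or Klrb1c. B cells had no upper limit on the myeloid sum except under the stricter and ratio gates. UMIs were summed per library and class where at least 20 cells were present, which left 17 libraries for myeloid cells, and tested with edgeR 4.0.16 (R 4.3.3): TMM normalization, filterByExpr and the quasi-likelihood test, with Benjamini-Hochberg adjustment over all genes tested and a threshold of 0.05. Class and cycling fits had the library as a block, with the tissues of a mouse counted as separate libraries. Tissue fits had the mouse as a block. B-cell deviations of the same mouse's tissues correlated at 0.22 to 0.66, and the labels' mouse numbers gave the pairing. Spleen groups shared 1 fit. Log2 differences are fitted values, and CPM use all UMIs of the class. Scripts were tested on simulated data. A second Aldoa identifier with few UMIs was not used.

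The members, gene lists and tests were chosen with earlier results of these data known, and the cycling comparisons in T and myeloid cells and between classes were added after the data were seen. All 10 members entered each comparison unless too sparse to be tested, and the counts called cover all that were tested. In several comparisons values are printed for a part of the members only, among them those without overlap between groups. The other lists are described by their counts and the 3 called genes of largest absolute difference, or fewer, and the likeness rule named 5 genes. Alternatives were RLE normalization, DESeq2 1.42.0, no low-count filter, immunoglobulin and T-cell receptor genes left out, cells thinned to 1500 UMIs, barcodes from 500 UMIs, other doublet thresholds, stricter or ratio class gates, non-cycling cells only, Xist as a covariate, other cycling calls, the block added or dropped, and each library left out.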

Additional observations from a re-analysis of the deposited data

Results flagged for a closer look

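Of 110 tests of whether the highest or lowest library of a group lay far from the others by Dixon's criterion, 34 were positive. Many members correlate over libraries and the same libraries recur, so the tests are not independent and the count is not set against chance. The share of all genes flagged by this rule was not computed. In B cells, Eµ-PRMT5 spleen 4 lay above its group for Gapdh (6447 CPM), Pgk1 (274 CPM), Eno1 (1256 CPM), Pkm (722 CPM) and Ldha (802 CPM), and below it for Slc2a1 (23.2 CPM). Eµ-PRMT5/TCL1 spleen 4 lay above its group for Tpi1 (296 CPM), Gapdh (4332 CPM), Pgk1 (247 CPM), Eno1 (549 CPM), Pkm (645 CPM) and Ldha (742 CPM). Fewer genes set apart other libraries in B cells, namely Aldoa (1108 CPM) in Eµ-PRMT5/TCL1 lymph node 1, Hk2 (13.1 CPM) in Eµ-PRMT5/TCL1 lymph node 4, and Slc2a1 (90.3 CPM) and Hk2 (4.78 CPM) in Eµ-TCL1 spleen 3.

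In T cells the same Eµ-PRMT5 spleen 4, with 42 T cells, lay above its group for Aldoa (2007 CPM), Tpi1 (691 CPM), Gapdh (9629 CPM), Pgk1 (526 CPM), Eno1 (1671 CPM), Pkm (1749.7 CPM) and Ldha (2228 CPM), and Eµ-PRMT5/TCL1 spleen 4 for Aldoa (1031 CPM) and Eno1 (1127 CPM). Eµ-TCL1 spleen 1 was high for Gapdh (3942 CPM) and Pkm (750.1 CPM), Eµ-PRMT5/TCL1 lymph node 1 for Aldoa (766 CPM) and Pgk1 (169 CPM) and Eµ-PRMT5/TCL1 lymph node 4 for Tpi1 (74.0 CPM). In myeloid cells Eµ-PRMT5 spleen 4 was high for Tpi1 (446 CPM), Eµ-PRMT5 spleen 5 was low for Eno1 (503 CPM) and high for Pfkp (126 CPM), and Eµ-TCL1 spleen 2 was high for Pfkp (82.2 CPM). The reasons were not tested.

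Differences between the effects of 2 groups were tested 50 times for the members, and 19 passed, all of them differences of the cycling effect between classes (log2 scale, edgeR). Of all 10862 genes 16.3% passed between T and B cells, 24.1% between myeloid and B cells and 27.1% between myeloid and T cells. In the contrasts of cycling or tissue differences between genotypes 0% of genes passed. The members that passed between T and B cells were Slc2a1 (0.58), Aldoa (0.51), Tpi1 (1.15), Eno1 (0.36) and Ldha (0.48). Between myeloid and B cells they were Hk2 (-1.48), Aldoa (0.49), Gapdh (-0.56), Pgk1 (-0.65), Eno1 (-0.63), Pkm (-0.64) and Ldha (-0.40), and between myeloid and T cells Tpi1 (-0.98), Gapdh (-0.84), Pgk1 (-0.68), Eno1 (-0.99), Pkm (-0.89) and Ldha (-0.88). Hk2 passed between myeloid and T cells too (-2.50), but it was too sparse for the T-cell fit and entered through the other classes, so that this value is not read as a difference. The markers of other cells and the UMIs per cell that move with the cycling state are given with the comparisons, and their part was not tested.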

How the results depend on the processing

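Counts of members called were recomputed under 626 combinations of comparison and alternative, of which 603 kept to within 1.5 times the reported count and 23 fell below it. The 603 include the spleen, node and tissue comparisons, where a count that stayed at 0 was taken as kept. All 23 lay in class or cycling comparisons with members called. Of 1947 values of single members, 1818 kept their direction and their side of the threshold, 127 lost the call and 2 reversed. The reversals were Eno1 (-0.10) and Ldha (-0.19) in the cycling difference between T and B cells when S phase genes called the state; the cause was not tested. In that comparison 5 members were called, and 1 without the low-count filter, 1 with cells thinned to 1500 UMIs, 1 with cycling at 3 or more UMIs, 3 with S phase genes, 2 with a call on unthinned counts and 1 to 6 with each library left out. The myeloid difference from B cells went from 7 members to 4 under stricter gates and 4 under ratio gates. Cycling myeloid cells went from 4 members to 1 with thinned cells, 2 without the spleen 4 pair and 2 to 5 with each library left out, the lowest without Eµ-PRMT5 spleen 1. Cycling B cells kept 7 to 9 members with each library left out, and cycling T cells 6.

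Without the library as a replicate block, 4 members were called in cycling B cells, 2 in cycling myeloid cells and 6 in cycling T cells, and 7, 9 and 7 between T and B, myeloid and B, and myeloid and T cells. In the spleen and node contrasts same-numbered libraries correlated at -0.12 to 0.19, so that they share only a number, and a replicate block there gave 0 members, with 10 genes called in B cells between Eµ-PRMT5 and Eµ-TCL1 against 3 without it. It changed no other call of a member. Hk2 in cycling B cells (0.51) lost its call under RLE (adjusted p = 0.056), DESeq2 (0.13), no filter (0.12), 500-UMI barcodes (0.079) and without Eµ-TCL1 spleen 1 (0.051), 2 (0.053) or 4 (0.06) in edgeR.

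Beside the members, counts over all genes moved by more than 1.5 times as follows. With thinned cells 1886 genes were called in cycling B, 1099 in T and 1830 in myeloid cells (4754, 4059 and 5180 as reported), and without the block 2044 in B and 2534 in T cells. S phase genes gave 2378 in T cells. The cycling differences of T and B, myeloid and B, and myeloid and T cells (1768, 2618 and 2948) came to 452, 763 and 1051 with thinned cells, to 923, 4823 and 5108 with S phase genes, and to 1068 under stricter gates for the first and 4521 and 4490 with unthinned calls for the others. For Eµ-PRMT5 against Eµ-TCL1 spleens 3 genes were called in B cells, 318 without Eµ-PRMT5 spleen 4, 69 without Eµ-PRMT5 spleen 5, 671 without the spleen 4 pair, 679 with DESeq2 and 1 under stricter gates. DESeq2 gave 112 for Eµ-PRMT5/TCL1 against Eµ-PRMT5 spleens (0 as reported), 63 and 136 between nodes in B and T cells (0 and 0), and 272 and 146 between tissues (1 and 1), where no filter gave 83 in B cells and leaving out the mouse of Eµ-PRMT5/TCL1 lymph node 1 gave 55. No filter gave 382 between tissues in myeloid cells (87). Depth limits Hk2 most, with 2 to 183 UMIs per library in B cells.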
